A study of Mus musculus with 10 samples.

Results

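The Hox genes of MC3T3-E1 cells, a pre-osteoblast line derived from newborn mouse calvaria, were examined by cluster. All genes whose GENCODE vM21 symbol is Hoxa, Hoxb, Hoxc or Hoxd followed by a number were taken, which gave 39 genes, all of them among the 40620 genes of the deposited table. The HoxA cluster on chromosome 6 holds 11 of them, HoxB on chromosome 11 holds 10, HoxC on chromosome 15 holds 9 and HoxD on chromosome 2 holds 9. The question was whether this calvarial line is free of Hox expression, and whether that differs between stages of differentiation. RNA from 5 stages was sequenced with 2 replicates (A and B) each. Subconfluent and confluent cells (day 0) grew in αMEM with 10% serum. The 24 h, 14 d and 21 d cells were then kept in osteogenic medium, to which ascorbic acid (50 µg/ml) and β-glycerophosphate (10 mM) had been added. All 10 samples are the same line, which the study obtained as a single subclone, and no genetic change is stated, so they represent that clone and not calvarial tissue.

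Hox genes encode homeodomain transcription factors that give cells their position along the body axis. Within a cluster, paralog number runs from the 3′ end (1), used early and towards the head, to the 5′ end (13), used late and towards the tail and the ends of the limbs. The head skeleton that comes from cranial neural crest in front of the second pharyngeal arch forms without Hox expression, and bone cells of the trunk and limbs keep the Hox profile of their origin. Hox proteins bind DNA together with Pbx and Meis cofactors, and Polycomb complexes keep unused clusters silent.

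The line was not free of Hox transcripts, but the Hox genes of 1 whole cluster were close to silent. A count in all 10 libraries was found for 22 of the 39 genes (8 HoxA, 6 HoxB, 8 HoxC and 0 HoxD), and 15 had at least 10 counts in every library. At the other end, 6 genes (15.4%) had 0 counts in all libraries, and 14 never exceeded 3 counts in a library. Of the 21371 protein-coding genes, 13481 had a count in every library and 11796 had at least 10 in each. Among them, 15.4% had 0 counts in all libraries and 5921 genes never exceeded 3. Levels are given as RPKM, read counts scaled by gene length and sequencing depth, as the authors deposited them. The mean exceeded 1 RPKM at some stage for 9 Hox genes, compared with 53.7% of 21371 protein-coding genes. By stage, 8 Hox genes were above 1 RPKM in subconfluent cells, 6 in confluent cells, 3 at 24 h, 4 at 14 d and 5 at 21 d, while the share of protein-coding genes stayed between 49.9% and 51.4%. This order was not kept at other limits: above 0.5 RPKM the numbers were 9, 10, 11, 10 and 10, and above 2 RPKM they were 2, 3, 2, 2 and 2. The highest Hox value in any library was 4.01 RPKM. In bulk RNA, expression in few cells and a low level in every cell cannot be told apart.

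**Figure D1:**
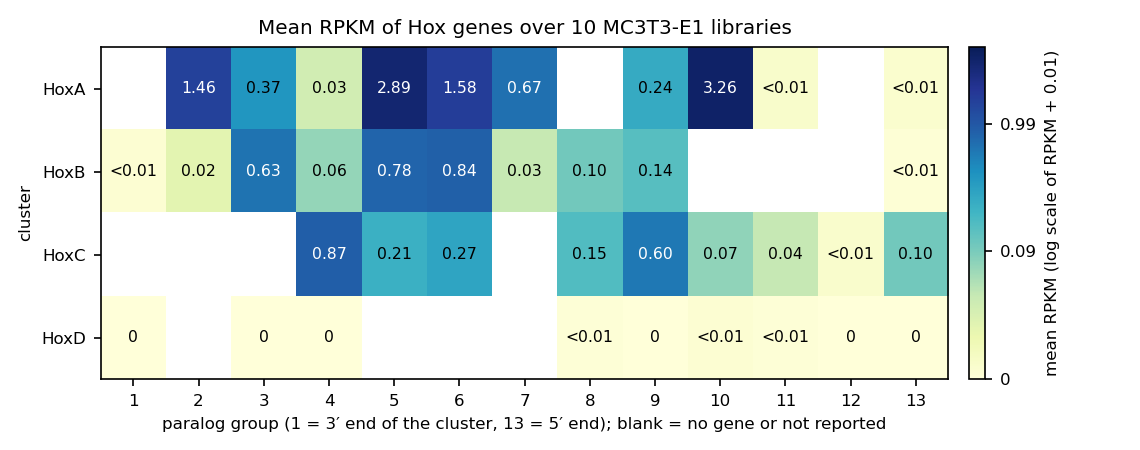
Mean RPKM over the 10 libraries of Hox genes by cluster (rows) and paralog group (columns, blank where no gene exists or none is reported), where color follows the log of RPKM + 0.01. HoxA held the highest values, with Hoxa10 at 3.26 and Hoxa5 at 2.89, and no HoxD gene reached 0.01.

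Promoter sequences are shown for the 2 highest Hox genes, Hoxa10 and Hoxa5, and for Hoxa13 and Hoxd12, which had at most 1 count in any library, so that expressed and near-silent members can be set side by side. The 250 bases before the transcription start are from RefSeq (GRCm38.p6), 5′ to 3′ on the gene's strand, with CpG dinucleotides in capitals.
Hoxa10 (chr6:52240855-52241104, minus strand): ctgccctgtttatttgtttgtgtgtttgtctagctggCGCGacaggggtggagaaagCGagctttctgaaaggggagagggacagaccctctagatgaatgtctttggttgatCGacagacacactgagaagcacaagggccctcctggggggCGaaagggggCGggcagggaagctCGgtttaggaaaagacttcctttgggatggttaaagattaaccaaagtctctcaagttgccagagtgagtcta
Hoxa5 (chr6:52204588-52204837, minus strand): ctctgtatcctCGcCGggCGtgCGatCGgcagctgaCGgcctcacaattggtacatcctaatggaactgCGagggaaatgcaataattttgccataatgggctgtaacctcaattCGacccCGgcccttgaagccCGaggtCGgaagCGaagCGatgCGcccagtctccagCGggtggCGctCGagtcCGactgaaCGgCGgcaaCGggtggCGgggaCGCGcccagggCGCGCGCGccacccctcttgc
Hoxa13 (chr6:52260881-52261130, minus strand): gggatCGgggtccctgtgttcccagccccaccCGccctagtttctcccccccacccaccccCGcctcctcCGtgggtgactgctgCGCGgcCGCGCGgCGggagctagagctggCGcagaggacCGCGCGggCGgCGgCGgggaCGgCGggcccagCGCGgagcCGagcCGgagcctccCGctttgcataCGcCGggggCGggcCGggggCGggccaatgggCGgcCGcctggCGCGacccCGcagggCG
Hoxd12 (chr2:74674763-74675012, plus strand): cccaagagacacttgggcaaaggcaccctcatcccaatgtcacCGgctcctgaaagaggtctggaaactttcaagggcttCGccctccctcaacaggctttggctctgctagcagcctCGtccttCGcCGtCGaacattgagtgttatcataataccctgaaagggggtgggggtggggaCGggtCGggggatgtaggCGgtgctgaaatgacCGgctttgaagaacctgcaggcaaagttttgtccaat
The window before Hoxa10 held 7 CpGs and that before Hoxa5 held 28. The near-silent genes spanned a like range, with 35 for Hoxa13 and 10 for Hoxd12. Such a window was used for 10 Hox genes, those whose RefSeq start lay within 100 bases of the annotated gene start and whose window overlapped no exon, and these held 6 to 35 CpGs (median of all 32851 windows, 6). The RUNX core motif TGTGGT, searched on both strands, was present in 1 of the 10 (Hoxd10) and in 14.0% of all windows. The HOX-PBX motif TGATTNAT was present in 1 (Hoxa2) and in 2.82% of all windows, and TATAAA in 2 (Hoxb8 and Hoxd13) and in 12.4%. No motif contains another. Motif matches are a description of these letters only.

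HoxA supplied most of the Hox signal. Its summed level was 10.4 ± 1.03 RPKM in subconfluent cells (mean ± SD, n = 2), 11.8 ± 0.138 in confluent cells, 10.4 ± 0.957 at 24 h, 11.1 ± 0.516 at 14 d and 11.6 ± 0.493 at 21 d. This made 57.2% of the summed RPKM of all Hox genes in subconfluent cells and 75.7% at 21 d. Hoxa10, a posterior gene that patterns the lumbar region and the uterus, was the highest Hox gene. Its RPKM was 3.25 and 2.77 in subconfluent cells, 3.02 and 3.39 in confluent cells, 2.83 and 3.10 at 24 h, 3.16 and 3.37 at 14 d and 3.71 and 4.01 at 21 d. Both 21 d libraries were above all others, and the other stages overlapped in part. Even so, 42.0% of protein-coding genes had a higher mean than Hoxa10. The difference between 21 d and subconfluent cells was 0.47 ± 0.13 (SE, adjusted p = 0.0176) on the log2 scale, which passed the test but not the 2-fold limit. It did not pass in some of the alternative fits given below, where the difference was 0.28 to 0.58 over all fits. The F test across the 5 stages gave Hoxa10 an adjusted p of 0.0526.

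Hoxa5, which acts in the cervical and upper thoracic skeleton and in the lung, followed. Its RPKM was 3.08 and 2.75 in subconfluent cells, 3.70 and 3.32 in confluent cells, 3.83 and 3.31 at 24 h, 1.97 and 2.59 at 14 d and 2.21 and 2.11 at 21 d. The 14 d and 21 d libraries were all below those of confluent and 24 h cells, and the log2 difference between 21 d and subconfluent cells was -0.32 ± 0.19 (SE, adjusted p = 0.201). Hoxa2, the gene that patterns the second pharyngeal arch, had RPKM of 1.35 and 1.69 in subconfluent cells, 1.49 and 1.28 in confluent cells, 1.35 and 1.31 at 24 h, 1.81 and 1.62 at 14 d and 1.41 and 1.24 at 21 d. It lay between 1.24 and 1.81 in all libraries and most stages overlapped, and the difference between 21 d and subconfluent cells was -0.08 ± 0.19 (SE, adjusted p = 0.752). Hoxa6, a thoracic gene, had RPKM of 2.14 and 1.33 in subconfluent cells, 2.19 and 2.25 in confluent cells, 0.256 and 1.68 at 24 h, 1.38 and 1.70 at 14 d and 1.70 and 1.16 at 21 d. Its 24 h replicates differed, with 19 counts in replicate A and 116 in replicate B.

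The remaining HoxA genes were lower. Hoxa9, used in the thorax and in blood progenitors, lay between 0.163 and 0.298 RPKM. The next genes in either direction from expressed members could be near 0. Hoxa11, the forearm and lower leg gene, lies 1251 bases from Hoxa10 and had 4 counts over all 10 libraries, where Hoxa10 had 7122. Hoxa13, the hand and foot gene, had 3. Hoxa4, whose neighbours Hoxa3 and Hoxa5 were expressed, was at 0 counts in 7 libraries, with 10 counts in confluent replicate B, 3 in 14 d replicate A and 2 in 21 d replicate B. The deposited length of Hoxa4 is 575 bases, against 1594 exon bases in GENCODE vM21, so reads on part of the gene may not have been counted. Antisense genes share 800 of the 2287 exon bases of Hoxa11 (Hoxa11os) and 255 of the 1594 of Hoxa4 (Gm29430), and neither the counter nor its strand setting is given in the sources used here.

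HoxB was lower than HoxA in every library. Its summed RPKM was 3.47 ± 0.375 in subconfluent cells, 2.77 ± 0.00546 in confluent cells, 2.26 ± 0.607 at 24 h, 2.29 ± 0.0208 at 14 d and 2.33 ± 0.194 at 21 d (mean ± SD, n = 2). Hoxb6, a thoracic gene, was the highest of the cluster. Its RPKM was 1.17 and 1.32 in subconfluent cells, 0.975 and 1.04 in confluent cells, 0.672 and 0.859 at 24 h, 0.601 and 0.572 at 14 d and 0.626 and 0.612 at 21 d. Both subconfluent libraries were above all others, and every 14 d and 21 d library was below every library of the first 3 stages. From subconfluent to 21 d its log2 fold change was -0.89 ± 0.19 (SE, adjusted p = 0.00625), which passed the test but not the 2-fold limit. Hoxb5, a cervicothoracic gene, had RPKM of 0.867 and 1.16 in subconfluent cells, 0.885 and 0.701 in confluent cells, 0.594 and 0.676 at 24 h, 0.734 and 0.736 at 14 d and 0.804 and 0.68 at 21 d. Its mean exceeded 1 RPKM in subconfluent cells alone, where 1 of the 2 libraries was above it. Hoxb3, a hindbrain and pharyngeal gene, ranged from 0.278 to 0.885 RPKM, but 2250 of its 4251 exon bases overlap the antisense transcript Hoxb3os, and the reads of the pair cannot be told apart without strand. The other HoxB genes, from Hoxb1 to Hoxb13, stayed at or below 0.269 RPKM, and Hoxb1 and Hoxb13, at the ends of the cluster, had 1 and 2 counts in all.

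HoxC was the cluster whose summed level moved most between stages. It was 4.31 ± 0.116 RPKM in subconfluent cells, 2.68 ± 0.0523 in confluent cells, 1.91 ± 0.133 at 24 h, 1.29 ± 0.116 at 14 d and 1.40 ± 0.136 at 21 d (mean ± SD, n = 2). Up to 14 d each stage lay below the one before with no overlap of replicates, and the 14 d and 21 d libraries overlapped. The share of HoxC in the summed RPKM of all Hox genes was 23.7% in subconfluent cells and 9.11% at 21 d. Within each library, which removes the scale of that library, the ratio of HoxC to HoxA was 0.394 and 0.436 in subconfluent cells, 0.229 and 0.227 in confluent cells, 0.187 and 0.181 at 24 h, 0.128 and 0.105 at 14 d and 0.125 and 0.116 at 21 d. The first step down therefore lay between the 2 stages grown without osteogenic medium.

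**Figure D2:**
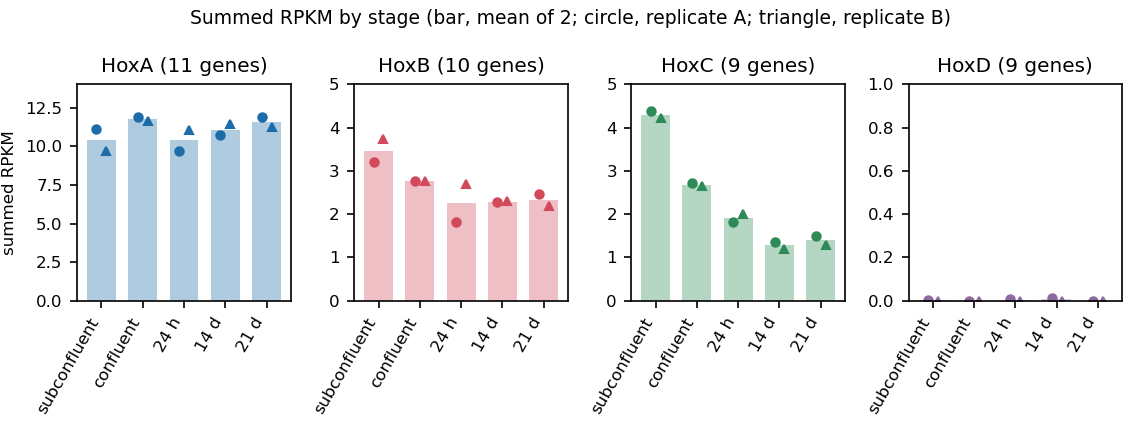
Summed RPKM of each Hox cluster (vertical axis, scale set per panel) by stage. Bars are means of 2 replicates, circles replicate A and triangles replicate B. HoxC went from 4.31 to 1.40, HoxA from 10.4 to 11.6, and HoxD stayed at or below 0.0139.

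**Figure D3:**
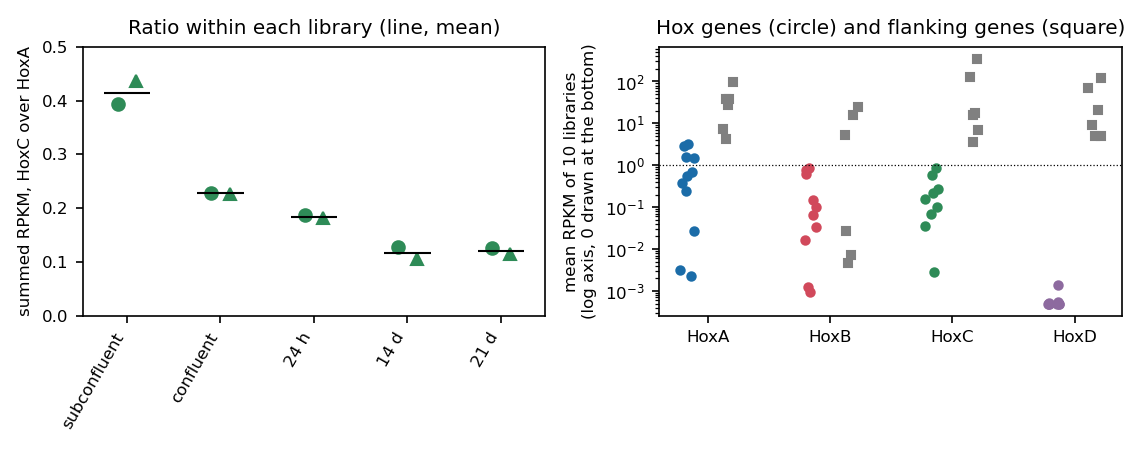
Left, the ratio of summed HoxC to summed HoxA RPKM in each library by stage, with the stage mean as a line, from 0.415 in subconfluent cells to 0.12 at 21 d. Right, mean RPKM over 10 libraries (log axis) of the Hox genes of each cluster and of 6 protein-coding genes flanking each cluster beyond Evx1 and Evx2, 21 of 24 of which had a stage mean above 1 RPKM (dotted line).

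HoxD had 4 counts over 9 genes and 10 libraries, out of 1015103989 counts on all genes. Hoxd1, Hoxd3, Hoxd4, Hoxd9, Hoxd12 and Hoxd13 had none, Hoxd8 and Hoxd10 had 1 each and Hoxd11 had 2. Hoxd10, a posterior limb and lumbar gene, was the highest at 0.0139 RPKM in 14 d replicate A. In single libraries a count of 0 allows up to 3 counts, which came to 0.00658 to 0.121 RPKM depending on gene length and depth, and this limit covers counting error only. Expression of the HoxD genes was thus not detectable at this depth. Hoxd3 and Hoxd4 share exons with each other, and 37.2% and 47.7% of their exon bases are free of other genes. Genes on the other strand share 368 of the 4191 exon bases of Hoxd3 and 347 of the 2948 of Hoxd4. One of these, Hoxd3os1, was not at 0, with 2 to 16 counts per library (mean 0.0554 RPKM). Evx2, the homeobox gene next to Hoxd13, had 0 counts in all libraries. Genes farther out were expressed, with Atp5g3 at 118 RPKM and Hnrnpa3 at 69.9 RPKM over the 10 libraries.

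Across the clusters, level did not follow position in one way. The Spearman correlation of mean RPKM with paralog number was -0.29 over 11 HoxA genes, 0.04 over 10 HoxB genes and -0.78 over 9 HoxC genes, as a description over genes of the same libraries. By paralog group, the summed mean RPKM was highest in group 5 (3.88), group 10 (3.33) and group 6 (2.70), and HoxA supplied the highest member of each. Groups 11, 12 and 13 together with their 9 genes stayed low, at 0.0386, 0.00278 and 0.104 RPKM.

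For changes between stages, the counts of all genes were tested with edgeR's quasi-likelihood test with Benjamini-Hochberg adjustment. A gene was called at an adjusted p under 0.05 and more than 2-fold change. Of the 39 Hox genes, 22 passed the filter on low counts (8 HoxA, 6 HoxB, 8 HoxC and no HoxD), and a gene could pass through the stage where it was high. The other 17 were not tested. Across the 5 stages, 10 of the 22 changed in the F test (adjusted p under 0.05), while 48.9% of all 20808 genes tested did. That count rose when a 24 h replicate was left out. It fell without subconfluent replicate B, either 14 d replicate or either 21 d replicate. The count over all genes tested moved the same way in each of these refits.

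Between 21 d and subconfluent cells, 9 of the 22 Hox genes were called, where 27.6% of all genes tested were. Of these, 2 were higher at 21 d (16.3% of all genes were) and 7 were lower (11.3% of all genes were). The median log2 fold change was 0.38 for the 8 HoxA genes, -0.63 for the 6 HoxB genes and -1.97 for the 8 HoxC genes, beside 0.04 for all genes. All HoxC calls were lower, 6 of 8. The column names show one index pair for the first 3 stages and another for 14 d and 21 d, so library set and stage cannot be told apart in this comparison.

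**Figure D4:**
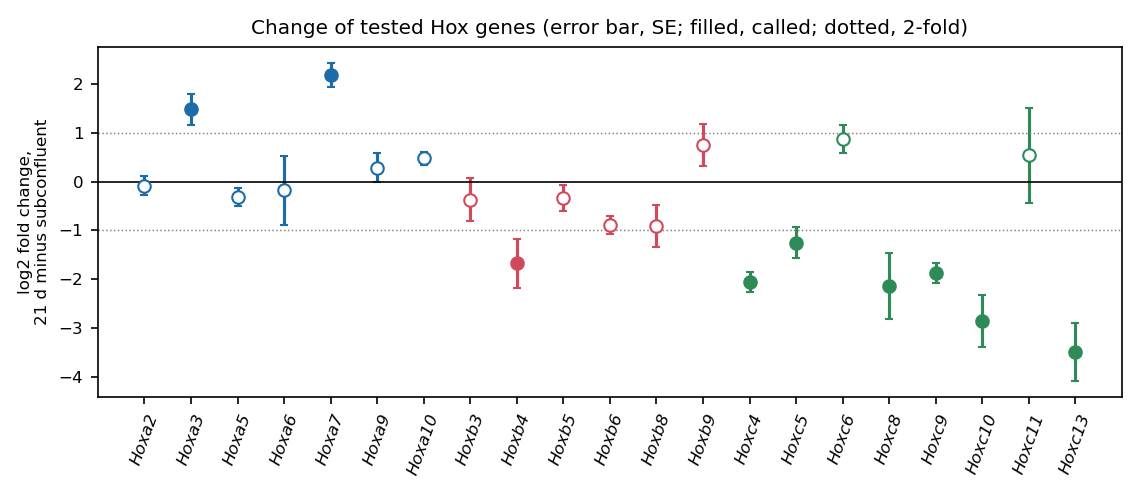
Log2 fold change from subconfluent to 21 d for tested Hox genes in order of paralog number within HoxA (blue), HoxB (red) and HoxC (green), with SE, where filled points were called. The calls were Hoxa3 and Hoxa7 above 0, and Hoxb4, Hoxc4, Hoxc5, Hoxc8, Hoxc9, Hoxc10 and Hoxc13 below.

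Hoxc4, a cervical gene at the 3′ end of its cluster, was the highest HoxC gene. Its RPKM was 1.88 and 1.71 in subconfluent cells, 1.17 and 1.10 in confluent cells, 0.50 and 0.701 at 24 h, 0.459 and 0.366 at 14 d and 0.412 and 0.385 at 21 d. The subconfluent libraries were the highest, those of confluent cells came next, and the other 6 were all lower. At 21 d against subconfluent cells, its log2 fold change was -2.06 ± 0.21 (SE, adjusted p = 0.000172). Hoxc9, which marks thoracic levels, had RPKM of 0.94 and 1.10 in subconfluent cells, 0.812 and 0.805 in confluent cells, 0.601 and 0.704 at 24 h, 0.275 and 0.25 at 14 d and 0.236 and 0.273 at 21 d. It fell at each step up to 14 d with no overlap of replicates, most between 24 h and 14 d, and the 14 d and 21 d libraries overlapped. Its log2 fold change was -1.88 ± 0.20 (SE, adjusted p = 0.000239) from subconfluent to 21 d and -1.18 ± 0.20 (SE, adjusted p = 0.00952) from 24 h to 14 d.

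The 5′ HoxC genes were lower in level. Hoxc13, known for its part in hair and nail, had RPKM of 0.34 and 0.354 in subconfluent cells, 0.0598 and 0.0828 in confluent cells, 0.0335 and 0.0206 at 24 h, 0.0226 and 0.037 at 14 d and 0.0465 and 0.0152 at 21 d. Only the subconfluent libraries were high, with 86 and 27 counts, and the other 8 held 3 to 22. Between these cells and 21 d the log2 fold change was -3.49 ± 0.60 (SE, adjusted p = 0.00222). Pooled over the replicates, 113 and 7 counts gave a ratio of 0.0784 (95% exact interval of counting error, 0.0308 to 0.167). Hoxc10, a gene of the hindlimb and lumbar cord, had 36 and 6 counts in subconfluent cells and 1 and 3 at 21 d. Its pooled ratio was 0.12 (95% exact interval, 0.0314 to 0.332), and the fitted log2 fold change was -2.85 ± 0.53 (SE, adjusted p = 0.00325).

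Hoxc8, a gene of the lower thorax, had RPKM of 0.367 and 0.33 in subconfluent cells, 0.208 and 0.164 in confluent cells, 0.148 and 0.0498 at 24 h, 0.0831 and 0.0239 at 14 d and 0.090 and 0.0591 at 21 d. The subconfluent libraries were the highest, and the other stages overlapped in part. Its log2 fold change from subconfluent to 21 d was -2.14 ± 0.67 (SE, adjusted p = 0.0319), and the pooled ratio was 0.207 (95% exact interval, 0.122 to 0.334). The adjusted p rose to between 0.0527 and 0.173 when any 1 of the subconfluent, confluent or 21 d libraries was left out, with log2 fold changes of -2.43 to -1.84. Hoxc5, a cervicothoracic gene, had 0.342 and 0.420 RPKM in subconfluent cells and 0.111 to 0.201 in the other 8 libraries, with a log2 fold change of -1.26 ± 0.32 (SE, adjusted p = 0.0131). It lost its call without subconfluent replicate B (-1.15) or 21 d replicate B (-0.92). Hoxc5 and Hoxc10 share 166 exon bases. Hoxc6, a thoracic gene that lies within the span of Hoxc5, went the other way. Its RPKM was 0.271 and 0.188 in subconfluent cells and 0.380 and 0.406 at 21 d, a log2 difference of 0.88 ± 0.28 (SE, adjusted p = 0.035) that did not reach 2-fold. Hoxc11 was at 0.00627 to 0.0991 RPKM and did not pass the test, and Hoxc12 had 1 count.

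**Figure D5:**
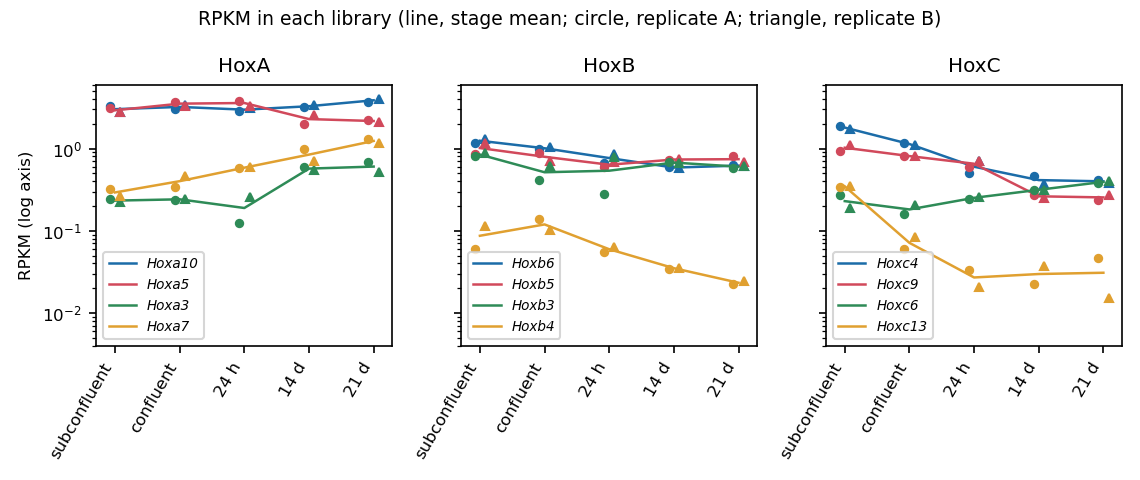
RPKM (log axis) of 4 genes of each of HoxA, HoxB and HoxC in each library by stage, where lines join stage means, circles are replicate A and triangles replicate B. Hoxc4, Hoxc9 and Hoxc13 go down from subconfluent cells, Hoxa3 and Hoxa7 go up, and Hoxa10 stays between 2.77 and 4.01.

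Hoxa7, a thoracic gene, rose most among HoxA genes. Its RPKM was 0.318 and 0.267 in subconfluent cells, 0.342 and 0.459 in confluent cells, 0.573 and 0.597 at 24 h, 0.99 and 0.696 at 14 d and 1.31 and 1.16 at 21 d. Both 21 d libraries were above all others. Against subconfluent cells, 21 d cells had a log2 fold change of 2.18 ± 0.25 (SE, adjusted p = 0.000286). Hoxa3, needed for thymus and parathyroid, had RPKM of 0.241 and 0.225 in subconfluent cells, 0.237 and 0.245 in confluent cells, 0.124 and 0.254 at 24 h, 0.591 and 0.548 at 14 d and 0.684 and 0.522 at 21 d. The 4 libraries of 14 d and 21 d were above the 6 earlier ones. Its log2 fold change was 1.48 ± 0.32 (SE, adjusted p = 0.00693) from subconfluent to 21 d and 1.73 ± 0.32 (SE, adjusted p = 0.0125) from 24 h to 14 d. Antisense transcripts run across both genes: 1529 of the 6014 exon bases of Hoxa3 and 586 of the 2876 of Hoxa7 are shared with genes on the other strand. One of those over Hoxa3, Hoxaas2, was also higher at 21 d (log2 fold change 1.35 ± 0.18 SE, adjusted p = 0.000619), and without strand the reads of the pair cannot be told apart.

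Hoxb4, known from blood stem cells, was the called HoxB gene. It had 16 and 9 counts in subconfluent cells and 2 and 5 at 21 d (0.0606 and 0.113 against 0.0223 and 0.0244 RPKM). The log2 fold change was -1.68 ± 0.50 (SE, adjusted p = 0.0259), and the pooled ratio was 0.354 (95% exact interval, 0.129 to 0.842). It lost its call without subconfluent replicate B (log2 fold change -1.27), without 21 d replicate A (-1.64) and without 21 d replicate B (-1.77), and also by DESeq2 (-1.72, adjusted p = 0.124) and with no filter on low counts (-1.70, edgeR adjusted p = 0.0543).

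The steps between neighbouring stages held few calls. From subconfluent to confluent cells, 0 of 22 Hox genes were called by edgeR (1.43% of all genes were), with 3 at an unadjusted p under 0.05. All 8 HoxC genes had a negative log2 fold change, with a median of -0.89 beside 0 for all genes. Hoxc13 came nearest, at -2.26 ± 0.53 (SE, adjusted p = 0.0759), and was called by DESeq2, by limma-trend on log2(RPKM + 0.1), and without either or both 24 h libraries. These stages share their index pair.

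From confluent cells to 24 h, 0 Hox genes were called by edgeR (2.13% of all genes were), 2 had an unadjusted p under 0.05, and DESeq2 and limma-trend called 0. Leaving out 24 h replicate B raised the number of calls among Hox genes (Hoxa6 and Hoxc4) and also among all genes. From 24 h to 14 d, 2 were called (5.98% of all genes were), Hoxa3 higher (4.47% of all genes) and Hoxc9 lower (1.51%). Without 14 d replicate A or B neither was called, with log2 fold changes of 1.69 and 1.76 for Hoxa3 and -1.24 and -1.14 for Hoxc9. This step crosses the index pairs. Leaving out 24 h replicate B again raised the number of calls among Hox genes and among all genes. From 14 d to 21 d, 0 were called by edgeR (3.97% of all genes were), with 1 at an unadjusted p under 0.05, and DESeq2 and limma-trend called 0.

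The 24 h replicates differed from each other more than those of any other stage. The SD of the log2 ratio of replicate A to B over the 22 tested Hox genes was 0.81 at 24 h and 0.32 to 0.46 at the other stages, and over all genes tested it was 1.02 against 0.83 to 0.85. In 24 h replicate A, Meox1, a somite factor, was at 115 RPKM, and it was at 0.129 or less in the other 9 libraries. Total counts ran from 44736156 to 162939333 per library. The 6 osteoblast markers all exceeded 1 RPKM at some stage, and Bglap, which encodes osteocalcin, had 1.11 and 3.89 RPKM in subconfluent cells and 1087 and 995 at 21 d. Against subconfluent cells, edgeR called 4 of the 6 higher at 21 d and 0 lower (16.3% and 11.3% of all genes). Col1a1 had means of 5549 RPKM in subconfluent cells and 5094 at 21 d. From 14 d to 21 d, 2 of the 6 were called lower (3.97% of all genes were called in either direction). Of markers of other cell types, Ptprc, Adgre1, Cdh5, Kdr, Plin1, Cidec, Myod1, Myog, Acan, Elavl4 and Snap25 had a mean under 0.01 RPKM. Lyz2, Acta1, Sox9, Col2a1 and Tubb3 had one above 10. In number, 2 of 5 blood, 0 of 3 endothelial, 0 of 4 adipocyte, 1 of 4 muscle, 2 of 3 cartilage and 1 of 3 nerve markers exceeded 1 RPKM at some stage. Between subconfluent cells and 21 d, Acta1 of muscle fell from a mean of 43.2 to 14.3 RPKM, while Des, the other tested muscle marker, had 0.223 and 0.344 RPKM. Sox9 of cartilage rose from 17.9 to 35.6 RPKM, while Col2a1, the other tested cartilage marker, had 157 and 75.7 RPKM. Fabp4 of fat rose from 0.0331 to 0.302 RPKM, with its highest stage mean at 24 h (0.995 RPKM). The part of these markers in the Hox results was not tested.

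The partners of Hox proteins were present at all stages. Of 9 Pbx, Meis and Pknox genes, 8 exceeded 1 RPKM at some stage, led by Pbx2 (15.6 RPKM over the 10 libraries), Meis3 (15.6), Pbx3 (6.52) and Meis2 (4.50). edgeR and DESeq2 called 0 of the 9 in each of the 5 comparisons, although 2 to 5 had an unadjusted p under 0.05 by edgeR, and 7 changed in the F test (48.9% of all genes did). Of 25 regulators of Hox transcription, 20 exceeded 1 RPKM, led by the retinoic acid receptor Rarg (34.9), the Polycomb gene Bmi1 (30.2), the retinoic acid hydroxylase Cyp26b1 (28.8) and the menin gene Men1 (26.5). Between subconfluent cells and 21 d, 4 of 22 tested were called, where 27.6% of all genes were. Ezh2, the H3K27 methyltransferase of Polycomb repressive complex 2, fell (log2 fold change -1.77 ± 0.09 SE, adjusted p = 9.32e-06), as did its partner Suz12 (log2 fold change -1.10 ± 0.15 SE, adjusted p = 0.000819). The Polycomb reader Cbx7 (log2 fold change 2.51 ± 0.72 SE, adjusted p = 0.0223) and the hydroxylase Cyp26a1 (log2 fold change 2.18 ± 0.60 SE, adjusted p = 0.0186) rose. Cyp26a1 was at a very low level, with 1 to 30 counts per library and means of 0.0421 RPKM in subconfluent cells and 0.203 at 21 d. Cbx7 had means of 0.450 and 2.41 RPKM.

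A list of transcription factors known from the head skeleton was also measured. Several of them, Prrx1 and Prrx2 among them, act in limb mesenchyme too. Of 27 listed, 21 exceeded 1 RPKM at some stage, against 9 of 39 Hox genes, and Prrx2 (121 RPKM over the 10 libraries), Six2 (66.9), Prrx1 (58.8) and Dlx5 (45.1) led them. At 21 d against subconfluent cells, 4 of 23 tested were higher and 7 lower (16.3% and 11.3% of all genes). Dlx3 (log2 fold change 5.09 ± 0.21 SE, adjusted p = 4.29e-06) and Lmx1b (log2 fold change 4.55 ± 0.25 SE, adjusted p = 1.34e-05) rose and Twist2 (log2 fold change -2.59 ± 0.41 SE, adjusted p = 0.00147) fell. Of 14 limb and trunk position factors, 6 exceeded 1 RPKM (Tbx15 at 16.0, Meox1 at 11.5 through 24 h replicate A, Shox2 at 7.90 and Emx2 at 4.98 led), and 0 of 7 tested were called by edgeR in each of the 5 comparisons, with 2 or 3 at an unadjusted p under 0.05 and 4 passing the F test (48.9% of all genes did). DESeq2 called 1 of them higher from confluent cells to 24 h, where it called 672 of 17600 genes in either direction. It called 1 lower from 24 h to 14 d (1328 of 20478 genes in either direction). Over these steps Meox1 had mean RPKM of 0.0597 in confluent cells, 57.3 at 24 h and 0.0343 at 14 d. Its 24 h value came from replicate A (115 RPKM, against 0.0626 in replicate B).

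Other transcripts of the clusters were mostly low. Of 36 in the count table, out of 48 annotated, 7 exceeded 1 RPKM at some stage. The pseudogene Gm11539, inside the HoxB span, stood at 580 RPKM, followed by Hotairm1 (2.07), a noncoding RNA at the 3′ end of HoxA, Hoxb3os (1.83) and Gm15050 (1.56). Sequence shared with genes elsewhere was searched for Hox genes only, so the source of the Gm11539 reads was not tested. At 21 d, 4 of the 15 tested transcripts were higher than in subconfluent cells by edgeR and by DESeq2 (16.3% of all genes were by edgeR), and 6 had an unadjusted p under 0.05 by edgeR. The 4 were Hotairm1 (log2 fold change 1.13 ± 0.36 SE, adjusted p = 0.0336), Hoxaas2 and Gm15050 (log2 fold change 1.17 ± 0.26 SE, adjusted p = 0.00788) in HoxA, and Gm53 (log2 fold change 2.17 ± 0.49 SE, adjusted p = 0.00823) between Hoxb13 and Hoxb9. Gm53 was at a very low level, with 2 to 49 counts per library and means of 0.0344 RPKM in subconfluent cells and 0.157 at 21 d. The homeobox genes Evx1, beside HoxA, and Evx2 had 1 and 0 counts at most in a library. Genes flanking the clusters beyond them were led by Hnrnpa1 (339), Atp5g2 (129), Atp5g3 (118) and Cbx3 (98.0 RPKM). Of 22 tested, 1 was higher at 21 d and 4 lower (16.3% and 11.3% of all genes), with a median log2 fold change of -0.57. Beside HoxC, Cbx5 (log2 fold change -1.60 ± 0.12 SE, adjusted p = 4.48e-05) and Hnrnpa1 (log2 fold change -1.16 ± 0.14 SE, adjusted p = 0.000336) fell and Calcoco1 (log2 fold change 2.08 ± 0.14 SE, adjusted p = 2.71e-05) rose. Beside HoxD, Lnpk (log2 fold change -1.26 ± 0.11 SE, adjusted p = 8.74e-05) and Atp5g3 (log2 fold change -1.15 ± 0.20 SE, adjusted p = 0.00233) fell.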

How the data were processed

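RNA of MC3T3-E1 cells was sequenced as 51 bp paired-end reads. The submitters' processing notes name FastQC, TopHat2 2.0.9, R 3.0.1 and mm10. The counter, its strand setting and its annotation are not given in the sources used here. The authors deposited whole-number counts per gene and RPKM values. Behind the RPKM lies a read total below the summed counts, which were 1.44 to 1.60 times as large. The 14 d replicate A and 21 d replicate B were sequenced in 2 lanes, and the merged columns were used.

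Symbols, positions and overlaps came from GENCODE vM21. Deposited gene lengths differ from its exon bases for some genes (Hoxb3, 1860 against 4251), so overlaps may not be those of the counted bases. Counts were fitted with edgeR 4.0.16 (filterByExpr, TMM, quasi-likelihood test, 5 groups, all 10 samples), with SEs derived from the F statistic, and the fit was tested on simulated data. Alternatives used DESeq2 1.42.0 and limma 3.58.1. Total counts set the precision, and p-values measure only the spread between these samples, since nothing in the labels says that replicates were separate cultures. Hox genes were given by value where a stage mean exceeded 1 RPKM, where they were called, or where highest in their cluster, and others by range, except the neighbours and extremes named, which were chosen after their values were seen. Of the other lists, the 4 highest and up to 4 called genes with the largest change were named. The members, lists and tests were chosen with earlier results of these data known. A shared 51-base stretch with a gene elsewhere was found for 8 Hox genes, at most 1.35% of a gene's stretches. Values of single genes that are withheld are not reported here, though they are included in counts and sums.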

Additional observations from a re-analysis of the deposited data

How the results depend on the processing

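All comparisons kept the direction of the named genes' fold changes where these were called. Counts of called Hox genes moved as follows. From subconfluent to confluent cells, 0 became 1 with DESeq2, limma-trend on log2(RPKM + 0.1), only the 2 groups compared, or no 24 h samples, and ran from 0 to 1 with 1 library left out. From confluent cells to 24 h, Hox calls appeared only without 24 h replicate B, where calls over all genes also rose. From 24 h to 14 d, 2 became 0 with only the 2 groups compared or limma-trend on log2(RPKM + 1). With 1 library left out, the count rose without 24 h replicate B and fell without either 14 d replicate, as did the count over all genes. It also rose without either 21 d replicate, where the count over all genes fell. From subconfluent to 21 d, 9 became 5 with at least 10 counts in every sample, where fewer genes were tested, and 0 with limma-trend on log2(RPKM + 1), whose pseudocount exceeds most of the levels; with 1 library left out it was 6 to 9. The F test gave 10, and 5 to 15 with 1 library left out: 12 and 15 without 24 h replicate A or B, and 5 without 21 d replicate B. Hoxb4 lost its call with DESeq2 (-1.72), no filter on low counts (-1.70), limma-trend on log2(RPKM + 1) (-0.09) or without subconfluent replicate B or either 21 d replicate (-1.77 to -1.27). Hoxc5 lost its call without subconfluent replicate B (-1.15) or 21 d replicate B (-0.92), and Hoxc8 (-2.43 to -1.84) without any 1 of the subconfluent, confluent or 21 d libraries. Hoxa10, which was not called, did not pass the test with no filter on low counts, library size alone or either limma-trend fit. Its log2 fold changes over all alternatives were 0.28 to 0.58. The cause was not tested.

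With 0.5 RPKM in place of 1, the number of Hox genes above it was 9 in subconfluent cells, 10 in confluent cells, 11 at 24 h, 10 at 14 d and 10 at 21 d. With 2 RPKM it was 3 in confluent cells and 2 at each other stage, so the order of the stages at 1 RPKM was not kept. On TMM-scaled CPM above 1 it was 7 at 24 h. The log2 ratio of summed HoxA, 21 d over subconfluent, was 0.15 in RPKM and 0.44 in TMM-scaled CPM. That of HoxC was -1.62, and -1.33 without Hoxc4.

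Replicate letters showed no clear pairing of the samples (correlations of deviations between stages of -0.18 to 0.10 over all genes tested). Counting noise of low genes can hide a shared effect, so these correlations do not settle whether samples were paired. With the letter as a block, the counts of calls stayed at 0, 0, 2, 0 and 9 for the 5 comparisons in the order of the stages, and the F test gave 8. Library size alone, the sum of the 2 lanes and the fits without 24 h samples were chosen after seeing the data.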
